A study of Mus musculus with 4 samples.

Results

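Peaks of the splicing factors SRSF1 and SRSF2 were examined on 1 RNA, the 45S pre-rRNA-like copy on mouse chromosome 17, known as Rn45s. Its peaks were taken as all those on the plus strand between positions 39979000 and 39986500 of build mm9, a window of 7501 nt, and numbered 39 for SRSF1 and 35 for SRSF2, together 74 of the 107319 peaks in both lists. The window was chosen by its scores, since it was known to hold overlapping pairs with high scores in both lists, so the scores, widths and overlaps given here are descriptions and carry no test. Peak lists of 2 CLIP-seq libraries were used, out of the 4 samples of the series. CLIP-seq crosslinks protein to RNA in living cells with ultraviolet light, pulls down 1 protein and sequences the RNA fragments that come with it. The SRSF1 (SF2/ASF) library came from SRSF1 tet-repressible MEFs and the SRSF2 (SC35) library from SRSF2 tet-repressible MEFs. Both are lines of mouse embryonic fibroblasts, and what tetracycline represses in each is known here only from these names. Per the labels' protocols both lines grew without tetracycline, and an antibody against the HA tag was used for the pull-down in both. Neither library had an siRNA treatment. Each protein was measured in its own line and in 1 library, so protein, line and library cannot be told apart, there is no replicate error, and no p-value was computed.

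Ribosomal RNA is made in the nucleolus by RNA polymerase I from tandem repeats of 1 transcription unit. The long precursor carries an external transcribed spacer at its 5′ end, followed by the 18S rRNA and then the rRNAs of the large subunit, with internal spacers between them. Cleavage and exonucleases remove the spacers, small nucleolar RNAs guide the chemical modification of the rRNAs, and the mature rRNAs are the most abundant RNAs of a growing cell. The repeat arrays are poorly represented in reference assemblies, so that reads from any repeat can be placed on a stray copy such as this one. SRSF1 and SRSF2 belong to the SR family of splicing factors, which bind exonic sequence in nuclear pre-mRNA and favour the inclusion of exons. SRSF1 also shuttles to the cytoplasm.

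The annotation at hand was of GRCm38 and was used for names and gene order only, since the peaks are on mm9. The named genes with peaks nearest to the window were H2-M3 on the left and Cenpq on the right, and on GRCm38 the same genes lie on those sides of the 18S-like gene Rn18s-rs5. In GENCODE M21 that 18S-like sequence comes after the noncoding transcript Gm26917 on the plus strand. Both ends of the 18S-like sequence and the 5′ end of Gm26917 are shown because they identify the RNA that this locus carries. They come from the GENCODE M21 transcripts of GRCm38, chromosome 17, plus strand, the 18S-like one as the reverse complement of the antisense entry CT010467.1. Capitals mark GGNG or CCNG, the 4-base motifs that SRSF2 is known to bind, and a match may run past the stretch shown.
18S-like, bases 1 to 60: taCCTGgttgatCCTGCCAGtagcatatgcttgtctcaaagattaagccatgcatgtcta
18S-like, bases 1790 to 1849: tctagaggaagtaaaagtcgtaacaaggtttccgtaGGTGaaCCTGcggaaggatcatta
Gm26917, bases 1 to 60: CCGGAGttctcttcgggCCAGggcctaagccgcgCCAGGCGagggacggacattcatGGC

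The 18S-like sequence was 1849 nt long with a GC content of 55.4%, and Gm26917 was 3329 nt long with a GC content of 69.1%. Counting overlapping matches, the sense strand of the 18S-like sequence held 114 matches to GGNG or CCNG, or 6.17 per 100 nt, and that of Gm26917 held 287, or 8.62 per 100 nt. The opposite strands held 5.08 and 8.14 per 100 nt. Among 55449 GENCODE transcripts of 1000 to 4000 nt the median was 3.53 per 100 nt, and 94.8% and 99.9% of them had a lower density than the 18S-like sequence and Gm26917. The density rises with GC content, whose median over those transcripts was 48.5%. No peak was placed on these sequences, because positions were not carried from one build to the other, and a match is no evidence of binding.

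The peaks formed an isolated block. They spanned 5741 nt, from 39979945 to 39985685, and the first peak of both lists began at the same base. The nearest other plus-strand peaks of SRSF1 lay 2571540 nt upstream, with a score of 7, and 1098402 nt downstream, with a score of 9. For SRSF2 these distances were 2712047 nt (score 4) and 339007 nt (score 5). Neither list held a minus-strand peak in the window. The block was thus set apart on both sides in both lists, and no peak crossed the limits of the window.

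The authors had divided the block into 2 host units, the named regions to which they assign peaks, and called both nongenic. The unit at the 5′ end, nongenic-9710, held 8 SRSF1 peaks and 7 SRSF2 peaks, up to position 39981056. The next unit, nongenic-9711, held 31 and 28 peaks of the window from position 39981315 on, and 2 more SRSF2 peaks outside it, among them the downstream neighbour at 339007 nt. Within the window the lowest score was 38 in nongenic-9710 and 19 in nongenic-9711, the same in both lists. Taken whole, nongenic-9711 had a lowest SRSF2 score of 5, so its lowest scores differed between the lists. Peak numbers between the first and the last were missing in nongenic-9711 (6 of SRSF1, 3 of SRSF2) and, for SRSF2, in nongenic-9710 (5), so some numbered peaks were not in the lists.

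**Figure D1:**
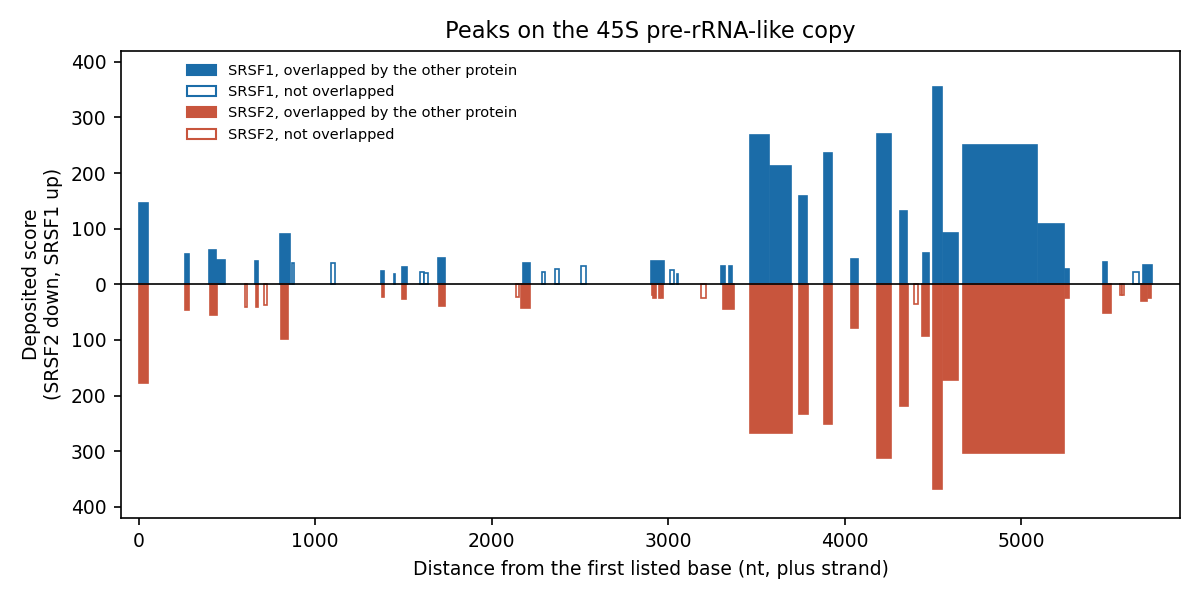
Position and deposited score of the 39 SRSF1 peaks (up) and 35 SRSF2 peaks (down) along the copy, in nt from the first listed base; each box spans 1 peak, and open boxes are peaks not overlapped by the other protein. The tall boxes stand at the first base and between about 3464 and 5243 nt, at matching places in both lists.

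Peaks of the copy ranked near the top of both lists. The score is the authors' own value per peak, a whole number of unstated meaning, and it is read within each list. The median was 41 for SRSF1 (quartiles 29.5 and 100, n = 39 peaks) and 40 for SRSF2 (25 and 135.5, n = 35), against 8 over each whole list. These medians stood at percentiles 99.5 and 99.4 of their lists, and all 74 peaks exceeded their list's median. The highest score of the entire SRSF1 list, 354, was on this RNA, as was the second highest of the SRSF2 list, 368. In the SRSF1 list 10 of the 100 peaks scored at least 100 were on it, and in the SRSF2 list 9 of 99; over the whole lists such peaks made up 0.196% and 0.176%. The window's peaks helped to choose it, so these ranks describe it and support nothing further.

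Most high scores lay in an inner stretch of the 3′ part of the block. A dense stretch of 1780 nt, from 39983409 to 39985188, was bounded after the values were seen, by the first and last peak past the middle of the block that scored at least 100. It held 12 SRSF1 peaks with a median score of 185.5 (45 to 354) and 11 SRSF2 peaks with a median of 234 (36 to 368). In the 3464 nt before it the medians were 32 over 23 SRSF1 peaks and 38.5 over 18 SRSF2 peaks, and in the 497 nt after it they were 31.5 over 4 and 24 over 6. By its rule the stretch holds every peak past the middle scored at least 100, so its higher medians follow in part from how it was bounded. Before the middle, only the first peak of the block reached 100 in each list. SRSF1 peaks covered 68.3% of the dense stretch and 18.7% of the sequence before it, and SRSF2 peaks 71.0% and 13.8%. Each list had 1 high peak at the first base and sparse, mostly low peaks after it. A dense stretch of mostly high peaks followed inside the 3′ part, with low peaks again at the 3′ end. The stretch had the same bounds for both lists, so a match of shape is not read from these segments.

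**Figure D2:**
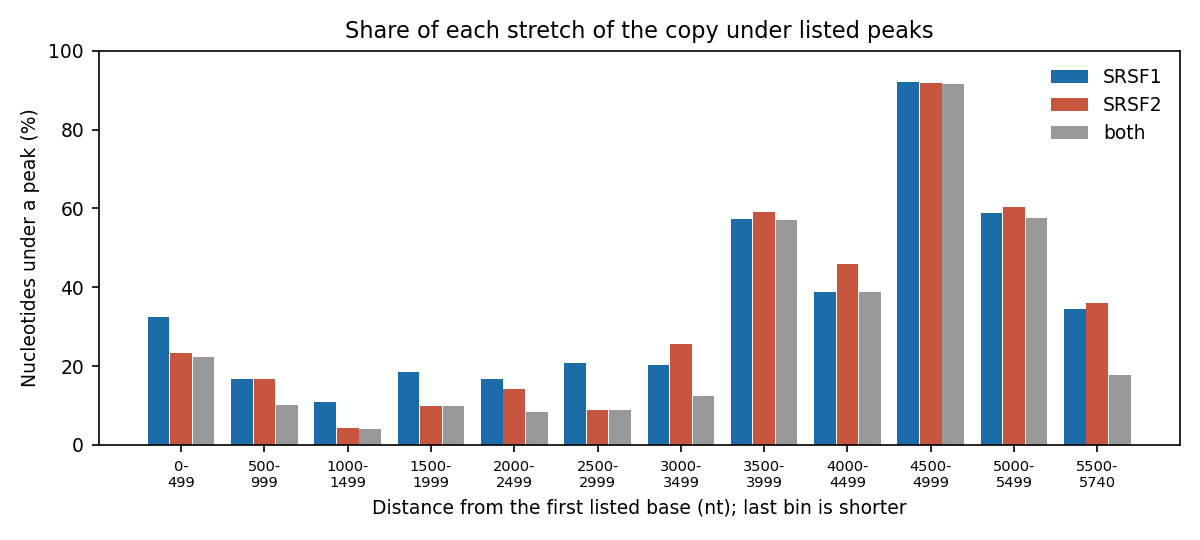
Percentage of nucleotides under a listed peak of SRSF1, of SRSF2 and of both, in bins of 500 nt from the first listed base (the last bin holds 241 nt). The bin from 4500 to 4999 nt is highest, at 92% for SRSF1, 91.8% for SRSF2 and 91.6% for both, and the bin from 1000 to 1499 nt is lowest, at 11%, 4.2% and 4%.

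In bins of 500 nt, coverage by both proteins ranged from 4% to 91.6%. The longest run without any peak was 405 nt (39981679 to 39982083), followed by 369 nt (39982477 to 39982845) and 258 nt (39981057 to 39981314). All of these lay before the dense stretch. In the dense stretch, the nucleotides under peaks of both proteins made up 95.4% of those under either, compared with 44.5% before it and 47.6% after it. The stretch was bounded by high peaks and holds the widest peaks of both lists, so this difference follows in part from its choice.

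The 5 peaks with the highest scores overlapped one another between the lists, site by site. The site at 39984448 scored 354 for SRSF1 (to 39984498, 51 nt) and 368 for SRSF2 (to 39984496, 49 nt). The site from 39984131 to 39984210 had the same 80 nt in both lists, with scores of 270 and 313. It was the only pair of the copy with identical ends. At 39984619 the SRSF1 peak ran for 419 nt to 39985037 with a score of 251, and the SRSF2 peak for 568 nt to 39985186 with a score of 304. These were the widest peaks of their whole lists, where the median width was 19 nt. The other 2 sites were at 39983409 to 39983644, where SRSF2 had a peak of 236 nt scored 267, and at 39983826 to 39983874, where 48 nt peaks of SRSF1 and SRSF2, offset by 1 nt, scored 236 and 252.

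Some long sites were divided in the SRSF1 list and whole in the SRSF2 list. Under the SRSF2 peak of 236 nt lay SRSF1 peaks of 103 nt (from 39983412, score 268) and 123 nt (from 39983520, score 213), 5 nt apart. Under the SRSF2 peak of 568 nt lay the SRSF1 peak of 419 nt and a peak of 149 nt (from 39985040, score 108), 2 nt apart. The opposite also occurred. An SRSF1 peak of 76 nt (39982846 to 39982921, score 41) lay over 4 SRSF2 peaks of 6 to 16 nt with scores of 19 to 25. Counting peaks therefore counts breaks as well as sites, and joining peaks that overlap between the lists gave 42 sites.

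Of these 42 sites, 24 had both proteins, 11 had SRSF1 alone and 7 had SRSF2 alone. Shared sites were longer, with a median of 50 nt, against 20 nt for SRSF1 alone and 18 nt for SRSF2 alone, and they held 1910 of the 2238 nt under any peak. A shared site joins overlapping peaks, while each site of 1 protein alone is a single peak. Wide peaks also overlap more easily, so the greater length follows in part from how sites were made. Of the shared sites, 18 consisted of 1 peak of each protein. Per nucleotide, 73.6% of the sequence under either protein was under both, against 20.5% over the rest of both lists, where most peaks have lower scores. With every peak of the copy set to 50 nt, the 73.6% became 44.0%.

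Most peaks of each protein on the copy lay on a peak of the other. Of the SRSF1 peaks, 28 of 39 (71.8%, exact 95% interval 55.1 to 85.0) shared at least 1 nt with an SRSF2 peak on the same strand, against 38.7% over the whole list. Of the SRSF2 peaks, 28 of 35 (80.0%, 63.1 to 91.6) were overlapped by SRSF1, against 35.2% over the whole list. Intervals are Clopper-Pearson and cover counting error only, and neighbouring peaks on 1 RNA are not independent. Of the peaks outside the window that scored at least 19, the lowest score in it (median 23 in both lists), 80.3% of 2437 SRSF1 peaks (78.7 to 81.9) and 75.3% of 3559 SRSF2 peaks (73.8 to 76.7) were overlapped. The window had been chosen by overlapping pairs, so no difference is read from these shares.

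**Figure D3:**
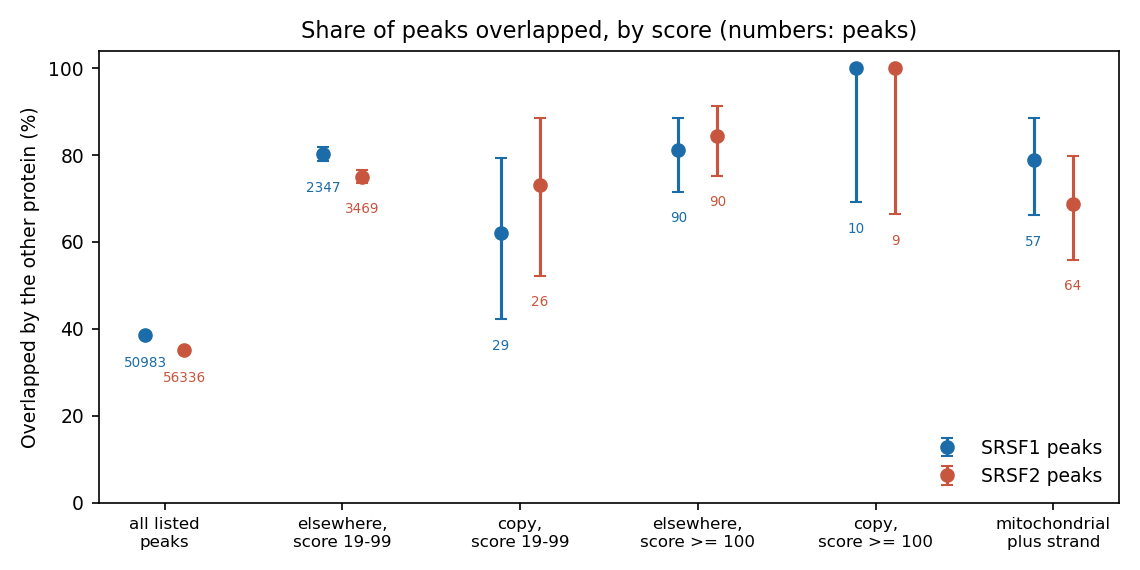
Percentage of peaks overlapped by the other protein, with exact 95% binomial intervals (bars) and the number of peaks beside each point, for all peaks, for peaks of the copy and elsewhere by score, and for the plus strand of the mitochondrial chromosome. SRSF1 peaks scored 19 to 99 are at 62.1% on the copy and 80.3% elsewhere, and all peaks of the copy scored at least 100 are at 100%.

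The same shares were also split by score. All 10 SRSF1 peaks and all 9 SRSF2 peaks scored at least 100 were overlapped, where elsewhere 81.1% of 90 SRSF1 peaks (71.5 to 88.6) and 84.4% of 90 SRSF2 peaks (75.3 to 91.2) of that score were. Below 100, 18 of 29 SRSF1 peaks (62.1%, 42.3 to 79.3) and 19 of 26 SRSF2 peaks (73.1%, 52.2 to 88.4) were overlapped, against 80.3% and 75.0% of peaks elsewhere scored from 19 to 99. Overlapping pairs with high scores had helped to choose the window. No trend with score, and no difference from peaks elsewhere, is therefore read from these values.

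Beside the other peaks of the copy, peaks of 1 protein alone were mostly low and narrow. Their median scores were 23 for SRSF1 and 25 for SRSF2, against 56 and 48.5 for overlapped peaks of the copy. Their median widths were 20 and 18 nt, against 44.5 and 42 nt. Overlapping pairs with high scores had helped to choose the window, and wide peaks overlap more easily. These contrasts are therefore descriptions, and no link of overlap with score or width is read from them. Set against the whole lists they were not low or narrow, since the list medians were a score of 8 and a width of 19 nt. The 11 SRSF1 peaks without an SRSF2 partner had scores of 19 to 39 and widths of 6 to 33 nt, and the 7 SRSF2 peaks without an SRSF1 partner had scores of 20 to 40 and widths of 8 to 27 nt. Of the SRSF1 ones 10 lay before the dense stretch, 0 in it and 1 after it, and of the SRSF2 ones 4, 1 and 2. The SRSF1 peaks with the highest scores among them were at 39981036 to 39981056 (score 39), 39980811 to 39980823 (38), 39982449 to 39982476 (32), 39982306 to 39982326 (27) and 39982956 to 39982977 (26). The SRSF1 peak at 39982449 was 327.5 nt from the nearest SRSF2 midpoint, the farthest of the copy. For SRSF2 they were at 39980547 to 39980559 (40), 39980655 to 39980673 (38), 39984339 to 39984362 (36), 39983132 to 39983158 (25) and 39982084 to 39982101 (22).

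Some overlapping peaks matched closely at their ends, and others lay well apart at their midpoints. Of 32 overlapping pairs, 9 (28.1%) had both ends within 2 nt, against 16.0% of all pairs and 26.3% of 1329 pairs elsewhere with both scores at least 19. The midpoints of 18 pairs (56.3%) lay within 10 nt, against 83.9% of all pairs outside and 82.2% of those with both scores at least 19. A peak with several partners counts once per partner in these shares. Every pair of the copy more than 10 nt apart included such a peak, except the pair at 39985408. The lower share is therefore not read as a poorer match of sites. The median midpoint offset was 4.25 nt, against 2.5 nt in the latter, and starts within 2 nt made up 40.6% against 49.1%. The largest midpoint offset, 211.5 nt, was on the site with the SRSF2 peak of 568 nt. The scores of the 2 lists had a Spearman rho of 0.88 across the 32 pairs, which share peaks and 1 RNA, and of 0.62 across 20622 pairs elsewhere. It was 0.54 across the 1329 pairs elsewhere with both scores at least 19, and 0.92 across 46 pairs of the mitochondrial plus strand. Among pairs with both scores at least 100 it was 0.65 across 10 pairs of the copy and 0.84 across 72 elsewhere. A closer match of scores is therefore not read as particular to the copy.

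**Figure D4:**
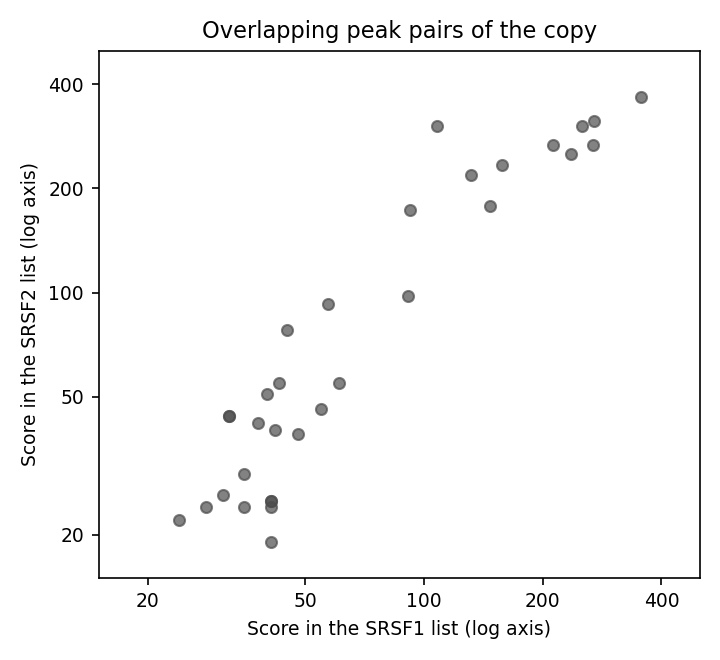
Score in the SRSF2 list against score in the SRSF1 list for the 32 overlapping pairs of the copy, both on log axes; each point is 1 pair, and a peak with several partners appears once per partner. Pairs low in one list are low in the other, and the pair with 354 and 368 stands at the top right.

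In the median, peaks were also wider than those of the whole lists. The median width was 36 nt for SRSF1 (6 to 419) and 33 nt for SRSF2 (6 to 568), against 19 nt in both whole lists, at percentiles 94.3 and 91.2. Peaks outside the window scored at least 19 had medians of 32 and 31 nt. For scores of 19 to 99 the medians were 25 and 22 nt on the copy and 33 and 31 nt elsewhere. For scores of at least 100 they were 66 and 54 nt on the copy and 24 and 25 nt elsewhere. Widths of at least 60 nt occurred in 7 SRSF1 peaks and 5 SRSF2 peaks, where 0.814% and 0.797% of the whole lists were that wide. All 12 of them were overlapped, as were 93.3% of the SRSF1 peaks and 88.0% of the SRSF2 peaks of that width in the whole lists. Besides the long sites above, they included the pair from 39984503 to 39984586, with an SRSF1 peak of 83 nt scored 92 and an SRSF2 peak of 84 nt scored 173. The fifth widest SRSF2 peak, of 65 nt (39983255 to 39983319, score 44), lay over SRSF1 peaks of 26 and 15 nt that both scored 32. Width rose with score within the copy, with a Spearman rho of 0.79 over 39 SRSF1 peaks and 0.84 over 35 SRSF2 peaks, which share 1 RNA and 1 library each.

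**Figure D5:**
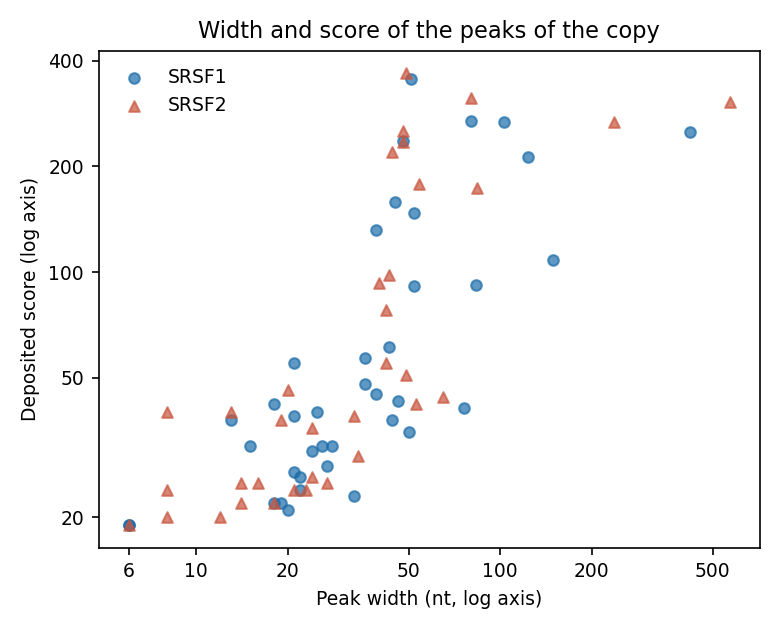
Deposited score against peak width, both on log axes, for the SRSF1 peaks (circles, n = 39) and SRSF2 peaks (triangles, n = 35) of the copy. Peaks scored at least 100 are 39 nt or wider, and the widest are 419 and 568 nt.

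Both proteins had similar numbers of peaks on this RNA. SRSF1 had 52.7% of the peaks (40.7 to 64.4), beside 47.5% over all peaks and 44.7% over other nongenic peaks. Over peaks outside the window scored at least 19, the SRSF1 share was 40.6% (39.4 to 41.9). There were 6.79 SRSF1 peaks and 6.10 SRSF2 peaks per kb of the block. SRSF1 peaks covered 1999 nt (34.8% of the block) and SRSF2 peaks 1887 nt (32.9%). Of the SRSF1 nucleotides 82.4% were under SRSF2, and of the SRSF2 nucleotides 87.3% were under SRSF1.

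Among regions with several peaks in each list, few had higher median scores. Among 1377 strand-specific tiles as long as the window with at least 5 peaks in each list, 6 had a higher median SRSF1 score and 11 a higher median SRSF2 score. None had more than 39 SRSF1 peaks, and 4 had more than 35 SRSF2 peaks. The tiles divide the genome without regard to peaks and can cut a cluster, while the window holds a whole block. This placement favours the window in the counts of peaks. Regions with fewer peaks are left out of these counts, whatever their scores. Outside the window, 90 SRSF1 peaks and 90 SRSF2 peaks scored at least 100. The tile most alike in both median scores, by distance on the log2 scale, was in the unnamed cluster-19740 on chromosome 6 (minus strand, medians 40.5 and 50.5, with 10 and 6 peaks). Next came tiles on the mitochondrial plus strand (32.5 and 45), in cluster-16168 on chromosome 4 (39.5 and 53.5), in cluster-2853 on chromosome 11 (30 and 32.5) and in cluster-8248 on chromosome 15 (28 and 39). The whole plus strand of the mitochondrial chromosome, whose RNA also includes abundant rRNAs, had 57 SRSF1 peaks with a median score of 51 and 64 SRSF2 peaks with a median of 60.5. Of these 78.9% (66.1 to 88.6) and 68.8% (55.9 to 79.8) were overlapped. Peaks there were narrower, with a median of 22 nt and at most 100 and 91 nt.

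Genes that build ribosomes were looked up by name, to set the rRNA beside its own pathway. Of 59 such genes, 18 had a named host unit with a peak; 12 had peaks of both proteins, 3 of SRSF1 alone and 3 of SRSF2 alone. Both proteins were present on 66.7% of these and on 66.0% of all 2155 named genes. Those with most peaks were Rbm19, an RNA-binding protein of the nucleolus (2 SRSF1 and 11 SRSF2 peaks), Eif6, which keeps ribosomal subunits apart (5 and 4), Rrn3, an initiation factor of RNA polymerase I (6 and 2), and Mybbp1a, a nucleolar protein that binds Myb (1 and 6). The highest score on these 4 genes was 14, while the highest on the copy was 368. Of the other genes of the list, Rmrp, the RNA of RNase MRP, reached 56 and Pes1 25, both above the 19 that was the lowest on the copy; they were named after their values were seen. Most peaks of the series lie in unnamed units, so the absence of a gene here does not show that it was unbound.

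Only limited checks of the cells were possible from peaks. Of 13 fibroblast markers 2 had a named unit with peaks, 68 of SRSF1 and 54 of SRSF2 together. Of 13 markers of leukocytes, endothelium, neurons and skeletal muscle, none had one, and of 5 epithelial markers 1 had a single SRSF1 peak. Most fibroblast markers had none either, and only 2155 genes in all had a named unit with a peak. These counts therefore do not identify the cell type. The amount of each RNA was not measured, and no library without a tagged protein was analysed here, so the score and the abundance of rRNA cannot be told apart.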

How the data were processed

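The authors deposited 1 peak list per library, with a score per peak, a whole number of at least 4 whose meaning is not stated. The build is mm9, per the submitters' processing notes, and positions are printed 1-based. No aligner, peak caller or threshold is named in the labels or files. Read depth is unknown. The samples labelled as given siRNA were not analysed here. From the lists, plus-strand peaks lying wholly in the window were taken. Peaks overlapped where 1 nt or more was common to both on 1 strand, which was checked against bedtools 2.31.1 and tested on simulated data. Shares carry exact (Clopper-Pearson) 95% intervals from scipy 1.17.1. Symbols came from RefSeq transcripts of GRCm38.p6. The window, the gene lists and the alternatives were chosen with earlier results of these data known. The naming rule took the 5 highest-scoring and the 5 widest peaks per list, the 5 pairs with the highest smaller score, the 5 highest-scoring peaks per list without a partner, the 5 tiles most alike in median score and the 4 ribosome biogenesis genes with most peaks. The divided sites, the dense stretch and the nongenic peaks elsewhere were named after their values were seen.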

Additional observations from a re-analysis of the deposited data

How the results depend on the processing

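No paired analysis was possible because each protein had 1 library and no test was made. The shares of peaks overlapped, the SRSF1 share and the median scores stayed within their own intervals or quartiles under the other overlap definitions, score filter, window limits, strands and host units tried. Widening the window by 5000 nt, taking both strands or keeping the upper 50% of each list by score left the same 74 peaks, so these settings could not change a value. Merging peaks, run for the overlap shares and the SRSF1 share, joined none. The percentage of covered nucleotides under both proteins, 73.6%, depended on the definition. It was 44.0% with every peak set to 50 nt and 53.5% without nongenic-9711, the host unit with most peaks. With alternatives chosen after seeing the data, it was 59.8% without peaks over 100 nt and 90.8% with only peaks scored at least 100, among which 100% of the SRSF1 peaks and 88.9% of the SRSF2 peaks were overlapped by one another. The cause was not tested. Without read depth, a peak missing from 1 list cannot be told from one just under its threshold.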

Other observations

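Outside the window, 13 SRSF1 peaks and 14 SRSF2 peaks in units called nongenic scored at least 100, so that the rRNA copy held 10 of the 23 such SRSF1 peaks and 9 of the 23 such SRSF2 peaks. Of those elsewhere, 12 SRSF1 peaks and all 14 SRSF2 peaks were overlapped by the other protein. They lay on chromosomes 1, 2, 6, 9, 11, 16 and 18 and on the mitochondrial chromosome. The highest was on chromosome 9 (minus strand, from 78023111), with a score of 318 for SRSF1 and 416 for SRSF2, the top score of the SRSF2 list. On chromosome 11 (minus strand) an SRSF2 peak of 367 nt (108872992 to 108873358, score 229) lay over adjacent SRSF1 peaks of 105 nt (score 160) and 259 nt (score 196), a division like that of the long sites of the rRNA copy. No gene was assigned to these regions, and whether they carry sequence in common with the rRNA repeat was not tested.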
